A study of Drosophila melanogaster with 5 samples.

Results

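skpA and Aos1 are the Drosophila melanogaster genes of a ubiquitin ligase subunit and of a SUMO-activating subunit that were present in an embryonic cDNA library spotted on nylon membranes. They were found by the gene name given to their clones, as 2 of 259 named genes of the library. The symbols and the identifiers CG16983 for skpA and CG12276 for Aos1 are those of the membrane tables. Each gene was represented by 1 cDNA clone, spotted in duplicate on each of 20 membranes, which gave 40 spots per gene.

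Ubiquitin and SUMO are small proteins that are joined to other proteins by chains of enzymes. The product of skpA is a Skp1 protein, the adaptor that ties an F-box protein to the cullin of an SCF ubiquitin ligase, and the F-box protein in turn selects the protein to be marked. The Aos1 protein pairs with Uba2 to form the enzyme that activates SUMO before it is passed to the conjugating enzyme. Both systems act in the early fly embryo, where the first nuclear divisions run on transcripts laid down by the mother and zygotic transcription then takes over.

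All embryos were of the Canton S wild type strain, were selected by hand under morphological criteria and were not treated. They were collected at 5 intervals of development, of which S2-3 is the syncytial blastoderm, S5 the cellular blastoderm and S6-7 the gastrula, while S8-9 and S10-12 follow gastrulation. Each interval has 1 deposited sample, for which RNA of many pooled whole embryos was converted into SMART-cDNA, labeled with 32P and hybridized to 4 membranes, A to D. The same letter in different intervals stands for separate membranes. What membranes of 1 letter have in common, apart from the printed layout, is not described. The library itself had been enriched by subtraction for transcripts of the gastrula over the syncytial blastoderm, so its clones are not a random choice of genes. Whether the 4 membranes of 1 interval go back to different embryo collections is not described, and all standard errors and p-values below therefore measure the spread between membranes, which may be technical. In whole embryos, fewer cells with a transcript and less transcript per cell cannot be told apart.

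The values are spot intensities on an arbitrary scale. Net intensity is the deposited signal after background subtraction. It was not for every spot the signal minus the local background listed for it, on which the signal rule rests. A spot passed the signal rule when it exceeded its local background by at least 1 SD of that background. Duplicates whose coefficient of variation (CV) was above 0.5 were left out. The mean net intensity of the duplicates was divided by the median net intensity of the spots of RP49, a ribosomal protein gene, on that membrane, and this RP49 ratio is the level used throughout. It compares 1 clone between intervals and says nothing about the level of one gene against another. Between 22.7% and 94.4% of the library spots passed on a membrane, against 0% to 34.7% of the solvent spots, which carry no DNA. The median RP49 net intensity ranged from 0.0122 to 0.669, and the CV of the RP49 spots reached 125%. Of the printed stage controls, Sry-alpha, which acts in cellularization, passed on 0 of 30 spots in S2-3 and S10-12 alike, on 16 in S5, 17 in S6-7 and 4 in S8-9. Of the other stage controls, tin passed on 8, twi on 5 and sna on 0 of 34 spots at S2-3, and fog on no more than 3 of 34 in any interval.

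skpA was near the background in the syncytial blastoderm and above the solvent spots on membranes A to C from the cellular blastoderm on, though by little on membrane B of S5. Of its 40 spots 25 passed the signal rule, and all 25 were on membranes A to C. Of the 6 spots per interval on these membranes 2 passed in S2-3, 5 in S5 and all 6 in each interval after that. Of all library spots, 64.9%, 44.4% and 22.7% passed on A, B and C of S2-3, so 2 of 6 was within the range of the library there. On A to C of the later intervals 42.7% to 80.9% of the library spots passed. On membrane D 0 of 10 spots passed in any interval.

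At S2-3 the RP49 ratio of skpA was 0.101 on membrane A and 0.104 on membrane B, from 1 passing spot on each. The passing spot of membrane A had a signal of 0.0396, where the background was 0.0263 with an SD of 0.00712. Its net intensity was 0.0133, below the 0.0152 of the other spot of A, which failed the rule. On membrane C both spots lay under the rule, with a ratio of 0.0538, and on membrane D the net intensity was 0. These levels were within or close to the range of blank spots. The 95th percentile of the solvent spots of the same membranes stood at a ratio of 0.0483 on A, 0.0968 on B and 0.0511 on C.

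At S5 the ratio of skpA was 1.92 on membrane A, 0.436 on membrane B, from 1 passing spot, and 1.32 on membrane C. At S6-7 it was 2.22 on A, 2.14 on B and 0.954 on C. At S8-9 it was 2.35 on A, 1.92 on B and 1.41 on C. Every one of these 9 values exceeded both S2-3 values, and membrane B of S5 was the lowest of them. At S10-12 the ratio was 0.746 on A and 1.08 on B, while the duplicates of membrane C differed too much to be used and had a mean ratio of 0.502. On membranes A to C each value from S5 on exceeded the 95th percentile of the solvent spots there, by the least on membrane B of S5, where it was 0.280 and the mean of both spots of skpA 0.306, and on membrane B of S10-12, where it was 0.705. The S10-12 values lay below all values of S8-9, which held in 1 direction or the other for 4.48% of the features, and above both of S2-3. On membrane D the ratio was 0 in S5, 0.0949 in the gastrula, 0.0280 in S8-9 and 0.0109 in S10-12, with both spots under the rule each time.

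**Figure D1:**
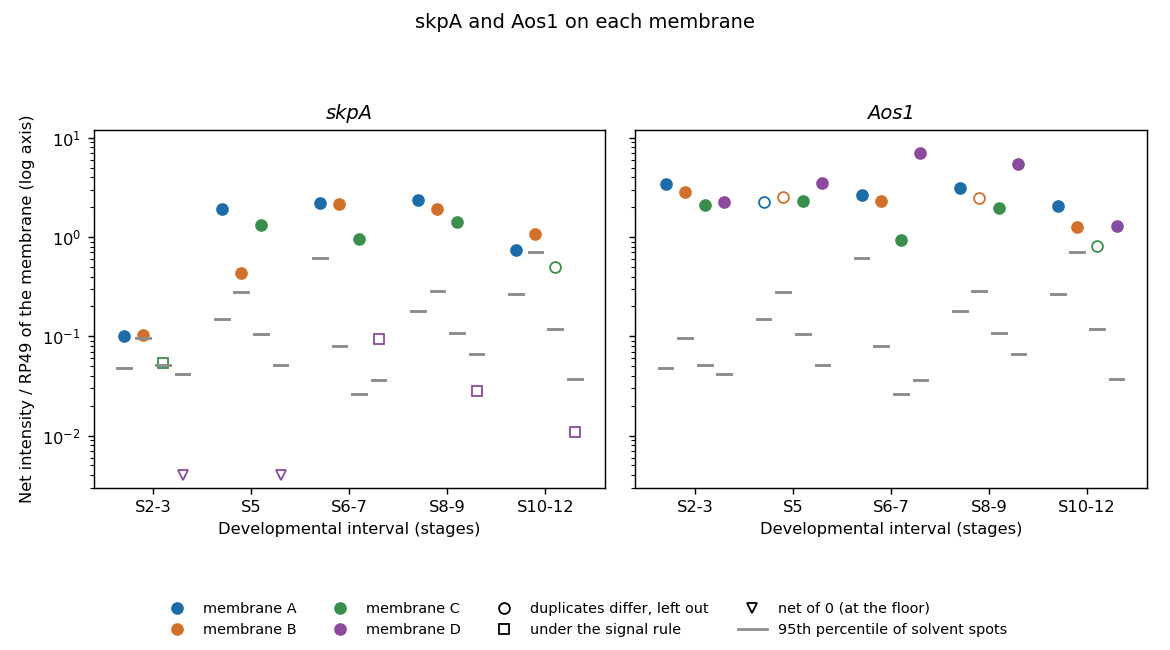
RP49 ratio (net intensity over the median RP49 net intensity of the membrane, log axis) of skpA and Aos1 on membranes A to D of the 5 intervals. Filled circles are values used, open circles are means of duplicates that differed too much, open squares are means of spots under the signal rule, triangles at the floor are net intensities of 0, and gray bars are the 95th percentile of the solvent spots. skpA stands between 0.436 and 2.35 on membranes A to C from S5 to S8-9 and at 0.101 and 0.104 at S2-3, while Aos1 stands above the 95th percentile of the solvent spots on every membrane.

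The mean log2 ratio of skpA was -3.29 ± 0.04 in the syncytial blastoderm (SD, n = 2 membranes) and 0.05 ± 1.11 in the cellular blastoderm (n = 3). It was 0.73 ± 0.69 in the gastrula (n = 3), 0.89 ± 0.37 in S8-9 (n = 3) and -0.16 ± 0.38 in S10-12 (n = 2). From high to low the order was S8-9, S6-7, S5, S10-12 and S2-3. No neighbors in this order differed past the threshold of the test, S10-12 and S2-3 included (adjusted p = 0.130 by limma without a block).

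Against S2-3, skpA was higher by 3.33 on the log2 scale at S5 (SE 0.94, adjusted p = 0.0271, limma with Benjamini-Hochberg adjustment over all features). It was 1 of 8 features called among 159 tested in that comparison, or 5.03%. At S6-7 it was higher by 4.02 (SE 0.94, adjusted p = 0.0108), where 7 of 169 features, or 4.14%, were called. At S8-9 it was higher by 4.17 (SE 0.94, adjusted p = 0.0062), where 5 of 155 features, or 3.23%, were called. skpA thus rose past the threshold in 3 of the 4 later intervals. The S2-3 mean in these differences covers only membranes A and B, with 1 passing spot near the solvent spots on each, and the other 2 membranes lay lower still, so the differences are not exact folds.

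At S10-12 the difference of skpA from S2-3 was 3.13 (SE 1.03, 95% interval 1.02 to 5.24), and with an adjusted p of 0.130 it did not pass, while 5 of 154 features, or 3.25%, did. The difference itself had an unadjusted p of 0.00505 in the limma fit. Significance Analysis of Microarrays (SAM) at a false discovery rate of 5% called skpA higher in all 4 later intervals. It also called 18.9% of the features tested in S5, 8.28% in S6-7, 40.6% in S8-9 and 26.0% in S10-12, so its call on skpA is 1 among many. With the membrane letter as a block in the limma fit, skpA passed in all 4, including S10-12 (difference 3.13, adjusted p = 0.00106). In that fit 40.9%, 21.4%, 40.0% and 46.8% of the features passed in the order of the intervals.

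The median difference of all features tested was itself above 0, with 0.85, 0.54, 0.88 and 1.11 from S5 to S10-12. Scaled to the 75th percentile of the library spots instead of RP49, these medians were 0.08, 0.10, -0.02 and 0.30. On that scale skpA differed from S2-3 by 2.44, 3.52, 3.15 and 1.91, with adjusted p-values of 0.0496, 0.00464, 0.012 and 0.175. The direction and the calls of skpA were thus those of the RP49 scale, with smaller differences.

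**Figure D2:**
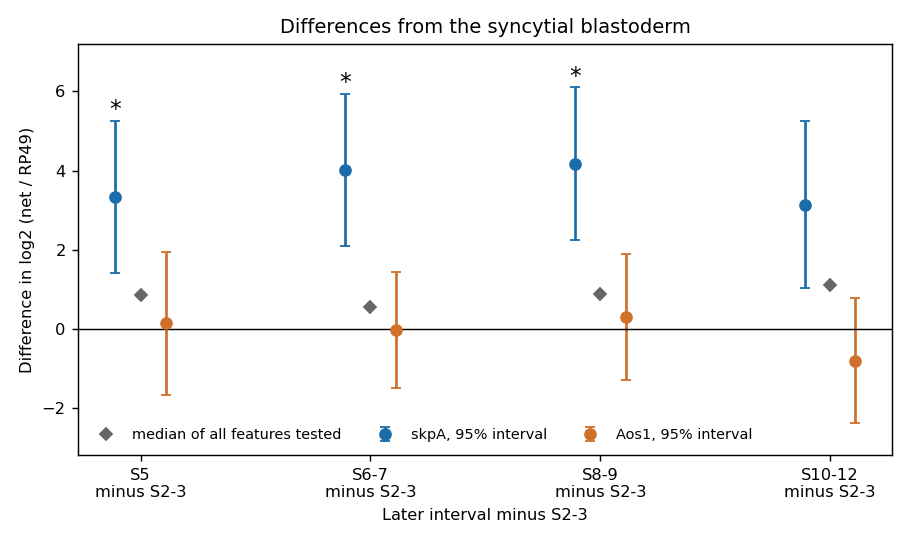
Difference in log2 RP49 ratio of each later interval minus S2-3, for skpA and Aos1 with 95% intervals of the limma fit. Asterisks mark an adjusted p under 0.05, and gray diamonds are the median of all features tested. skpA lies between 3.13 and 4.17 in the 4 comparisons, and the intervals of Aos1 all include 0.

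Taken letter by letter, skpA was higher than at S2-3 on A, B and C in every later interval. Between the membranes of letter A the log2 difference from S2-3, over both spots whether passing or not, was 4.15 in S5, 4.36 in the gastrula, 4.44 in S8-9 and 2.79 in S10-12. For letter B it was 1.74, 4.54, 4.38 and 3.56 in the same order, and for letter C 4.62, 4.15, 4.71 and 3.22. At S5 the difference on membrane B was smaller than on the other 2. At S2-3 both spots of C and 1 of 2 spots on A and on B lay under the signal rule, so these differences show the direction for each letter and not an exact size. Membrane D gave no such difference, since its S2-3 net intensity was 0.

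Membrane D carried another layout, the whole library of 579 clones, and 563 clones passed on at least 1 spot there. The 16 clones with 0 passing spots on D made up 2.76%. Of 76 clones on both layouts that passed on at least 25 spots of membranes A to C, as skpA did, 1 had 0 passing spots on D, and that clone was skpA. The part that layout or spotting of membrane D had in this was not tested. No spot of skpA on D had entered the fit, so leaving D out could not change its differences and is no check of them. The adjusted p-values changed only through the other features. Without membrane D they were 0.000636, 3.97e-05 and 1.15e-05 at S5, S6-7 and S8-9, and S10-12 passed as well (0.00539).

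The low level of skpA at S2-3 rests on 2 membranes. Without membrane A the differences at S5, S6-7 and S8-9 were 2.86, 3.78 and 3.98 with adjusted p-values of 0.88, 0.94 and 0.713, and without membrane B they were 3.98, 3.86 and 4.18 with 0.438, 0.536 and 0.553. In these fits the single S2-3 membrane that is left is assumed to vary like the others. With no signal filter the differences at S5, S6-7 and S8-9 were 4.00, 3.03 and 4.22 with adjusted p-values of 0.172, 0.306 and 0.120. In that fit membrane D entered at S6-7, and membrane B of S5 was left out because its duplicates then differed. Without membrane C the S5 difference was 3.16 (adjusted p = 0.0668). At S5 the RP49 spots of membranes A to C also had CVs of 107%, 96.4% and 125%, against at most 78.9% elsewhere, and scaled to the mean of RP49 the S5 difference was 2.50 (adjusted p = 0.170). The exact two-sided permutation test over membranes gave p = 0.1 at S5, S6-7 and S8-9, the smallest that 3 against 2 membranes allow, and 0.333 at S10-12, the smallest that 2 against 2 allow. Membranes of the 2 intervals did not overlap for 24.5%, 13.6%, 28.4% and 23.4% of all features tested in the 4 comparisons, so the lack of overlap of skpA in each is not rare.

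None of the 6 comparisons of skpA between later intervals passed the test. S6-7 exceeded S5 by 0.68 (95% interval -1.04 to 2.41), S8-9 exceeded S5 by 0.84 (-0.89 to 2.57) and S8-9 exceeded S6-7 by 0.16 (-1.57 to 1.88). S10-12 differed from S5 by -0.20 (-2.13 to 1.72), from S6-7 by -0.88 (-2.81 to 1.04) and from S8-9 by -1.04 (-2.97 to 0.89). All 6 adjusted p-values were 0.940 or more, and 0% to 1.35% of the features were called in these 6 comparisons. With all spots taken, S10-12 was below S8-9 by 0.83 to 1.65 and below S6-7 by 0.93 to 1.57 on membranes A to C. Membrane D had no passing spot to compare.

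Aos1 was plainly detected in every interval, with mean levels close to each other from the syncytial blastoderm to S8-9 and a lower mean at S10-12. All 40 of its spots passed the signal rule, membrane D included. On 16 of 20 membranes the duplicates were close enough to be used. Those left out were membranes A and B of S5, B of S8-9 and C of S10-12, with CVs of 0.73, 0.56, 0.70 and 0.65.

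At S2-3 the RP49 ratio of Aos1 was 3.41 on membrane A, 2.87 on B, 2.09 on C and 2.27 on D. At S5 it was 2.31 on C and 3.54 on D, and the unused means of A and B were 2.25 and 2.56. At S6-7 it was 2.67 on A, 2.32 on B, 0.946 on C and 7.12 on D. These intervals overlapped throughout, and S6-7 held both the highest and the lowest of the values used. The S6-7 membrane C had the highest RP49 median of all 20 membranes, 0.669, and the net intensities of Aos1 there, before the division by RP49, averaged 0.633, the highest of the gene.

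At S8-9 the ratio of Aos1 was 3.10 on membrane A, 1.95 on C and 5.50 on D, and the unused mean of B was 2.48. At S10-12 it was 2.04 on A, 1.26 on B and 1.29 on D, and the unused mean of C was 0.807. The 3 values used at S10-12 lay below all 4 of S2-3, if only just so for membrane A, and 23.4% of the features tested did not overlap between these 2 intervals. On every membrane Aos1 was above the 95th percentile of the solvent spots, by the least on membrane B of S10-12, where that percentile stood at 0.705.

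The mean log2 ratio of Aos1 was 1.38 ± 0.32 in the syncytial blastoderm (SD, n = 4 membranes) and 1.52 ± 0.44 in the cellular blastoderm (n = 2). It was 1.35 ± 1.19 in the gastrula (n = 4), 1.69 ± 0.75 in S8-9 (n = 3) and 0.58 ± 0.39 in S10-12 (n = 3). From high to low the order was S8-9, S5, S2-3, S6-7 and S10-12, and no neighbors in it differed past the threshold of the test. Against S2-3, Aos1 differed by 0.13 at S5 (SE 0.88, 95% interval -1.67 to 1.93, adjusted p = 0.933 by limma). The difference was -0.04 at S6-7 (SE 0.72, -1.51 to 1.43, 0.979) and 0.30 at S8-9 (SE 0.78, -1.29 to 1.89, 0.836). On membranes A, B and C Aos1 was lower than at S2-3 in both S6-7 and S8-9, by 0.31 to 1.14 and by 0.10 to 0.21 over both spots, while on membrane D it was higher by 1.65 and 1.28. Without membrane D the differences were -0.60 and -0.15. The interval at S5 spans 0.315-fold to 3.82-fold, so changes of that size in either direction cannot be told from none with these membranes. The sign of the S5 and S8-9 differences was negative when scaled to the 75th percentile, to RP49 with dap or to RP49 with actin and tubulin. The fit scaled to RP49 with dap also left out membrane D. Leaving out D alone turned both signs as well, with -0.24 at S5 and -0.15 at S8-9.

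The lowest level of Aos1 was at S10-12, with a difference from S2-3 of -0.81 (SE 0.78, 95% interval -2.39 to 0.78, adjusted p = 0.518), which did not pass. The median difference of all features tested there was 1.11. Scaled to the 75th percentile of the library spots, the difference of Aos1 was -1.74 (adjusted p = 0.0781 by limma), which did not pass either. On the RP49 scale, letter by letter and over both spots, the log2 difference from S2-3 was -0.74 for A, -1.19 for B, -1.37 for C and -0.81 for D. Aos1 at S10-12 was also below S5, S6-7 and S8-9 for each of the 4 letters. The exact two-sided permutation test of S10-12 against S2-3 gave p = 0.0286, the smallest that 3 against 4 membranes allow, before any adjustment for the 20 comparisons of the 2 genes. SAM did not call Aos1 in any of the 4 comparisons with S2-3. None of the 6 comparisons between later intervals passed either, with differences from -1.11 for S10-12 minus S8-9 to 0.34 for S8-9 minus S6-7 and adjusted p-values of 0.940 or more.

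The net intensity of skpA as a percent of that of Aos1 on the same membrane needs no RP49. Only its change between intervals can be read, since the 2 clones differ as probes. On membrane A it was 3.17% in the syncytial blastoderm, 85.0% in the cellular blastoderm, 83.0% in the gastrula, 75.6% in S8-9 and 36.5% in S10-12. On membrane B it was 3.20%, 12.0%, 92.4%, 77.1% and 85.9% in the same order, and on membrane C 2.58%, 57.1%, 101%, 72.3% and 62.3%. On these 3 membranes every later value exceeded every S2-3 value, and at S6-7 and S8-9 the membranes lay within narrow ranges. Of the 6 skpA spots behind the S2-3 values 4 lay under the signal rule, so the size of the change is not exact. Each later interval against S2-3 had an exact two-sided permutation p of 0.1, the smallest that 3 against 3 membranes allow. On membrane D the share was 0% at S2-3 and S5 and at most 1.33% later.

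**Figure D3:**
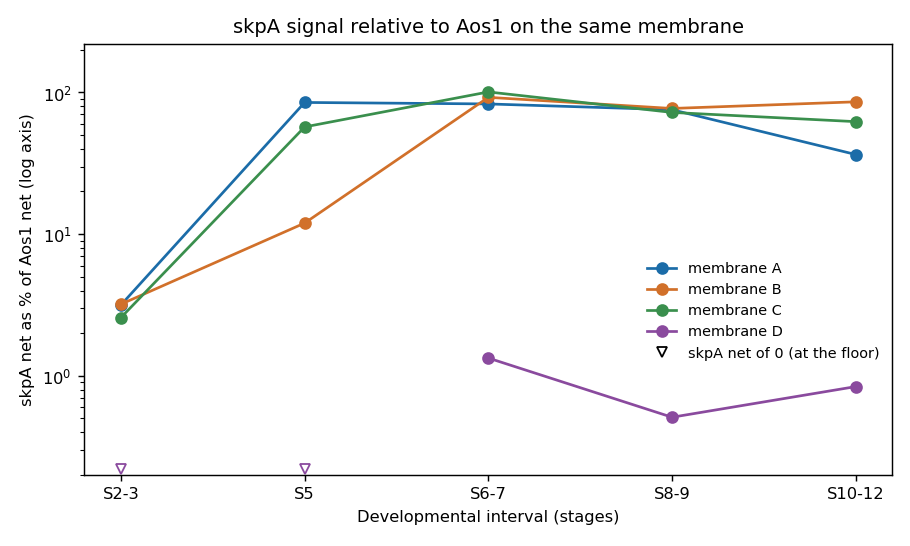
Net intensity of skpA as a percent of the net intensity of Aos1 on the same membrane (log axis) across the 5 intervals, over both spots of each gene whether passing or not. Lines join membranes of the same letter and triangles mark a skpA net intensity of 0. Membranes A to C stand at 2.58% to 3.20% at S2-3 and at 72.3% to 101% at S6-7 and S8-9, and membrane D at 1.33% or less.

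Of 112 ubiquitin and SUMO pathway symbols listed, 7 were on the membranes, skpA, Aos1 and 5 others. The other 5 were smt3, which encodes SUMO itself, DDB1, the adaptor of Cul4 ubiquitin ligases, CSN5, the COP9 signalosome subunit that removes Nedd8 from cullins, Rpn6, a subunit of the proteasome lid, and Ubp64E, a ubiquitin-specific protease. Against S2-3, 4 of these 5 could be tested in each later interval, and 0 passed in either direction in any of them by limma. With the membrane letter as a block, CSN5 was higher at S5, S8-9 and S10-12 (adjusted p = 0.0367, 0.0245 and 0.00565) and smt3 at S8-9 and S10-12 (0.0403 and 0.0108), in the fit that called 40.9%, 40.0% and 46.8% of the features in those intervals. Their median differences from S5 to S10-12 were 0.66, 0.30, 0.61 and 0.73, beside 0.85, 0.54, 0.88 and 1.11 for all features tested.

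smt3 passed on all 40 spots, as Aos1 did. Its mean log2 ratio was 0.77 ± 0.41 in the syncytial blastoderm (SD, n = 4), 1.65 ± 0.54 in the cellular blastoderm (n = 3) and 1.50 ± 0.87 in the gastrula (n = 4). It was 1.85 ± 0.61 in S8-9 and 2.17 ± 1.11 in S10-12 (n = 4 each). The highest mean of smt3 was in the interval where Aos1 had its lowest, but neither gene differed there from S2-3 past the threshold without the block. The median difference of all features tested at S10-12 was itself 1.11. At S10-12 the RP49 ratio of smt3 was 3.92, 8.78, 1.61 and 7.47 on membranes A to D, against 1.96, 1.91, 1.12 and 2.04 at S2-3, a difference of 1.40 (SE 0.71, adjusted p = 0.315) that did not pass without the block. Each S10-12 value exceeded the S2-3 value of the same membrane letter, but that of membrane C lay below 3 of the 4 S2-3 values.

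Ubp64E passed on 3 of 8 spots in the syncytial blastoderm, where 1 membrane could be used, with a log2 ratio of -2.27. The gene was not tested against S2-3. Its means were -1.07 ± 0.85 in the cellular blastoderm (n = 4), 0.28 ± 0.26 in the gastrula (n = 3), where it was highest, -0.57 ± 0.82 in S8-9 (n = 2) and -0.96 ± 0.64 in S10-12 (n = 4). DDB1, CSN5 and Rpn6 kept means between -2.61 and -1.10 in all intervals, with differences from S2-3 between -0.42 and 1.10 and adjusted p-values of 0.438 or more.

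A further 4 ubiquitin genes were found by name on the membranes after their values were at hand and are not counted with the listed genes. pall, which encodes an F-box protein, had a mean log2 ratio of -0.35 ± 0.08 at S5 (n = 2) and -2.08 ± 0.69 at S2-3 (n = 3), a difference of 1.73 (SE 0.96, adjusted p = 0.472) that did not pass without the block and passed with it (0.0269). rdx, an adaptor of Cul3 ligases, passed on 13 of 40 spots, and cdc16, a subunit of the anaphase-promoting complex, on 24 of 40. Neither was tested against S2-3, since rdx had 1 membrane in each later interval and cdc16 had 1 at S2-3. From S5 to S10-12 rdx differed from S2-3 by -0.23, 0.79, 1.28 and 2.04 without the block. With it the differences of rdx were -0.53, 0.49, 0.98 and 1.73. cdc16 differed by -0.90, -0.45, -1.11 and -0.65 without the block and by 0.40, -0.45, 0.02 and 0.48 with it. ec, a ubiquitin-specific protease, was on membrane D alone, where its log2 ratio was -0.19 at S5 and -3.16 at S2-3.

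**Figure D4:**
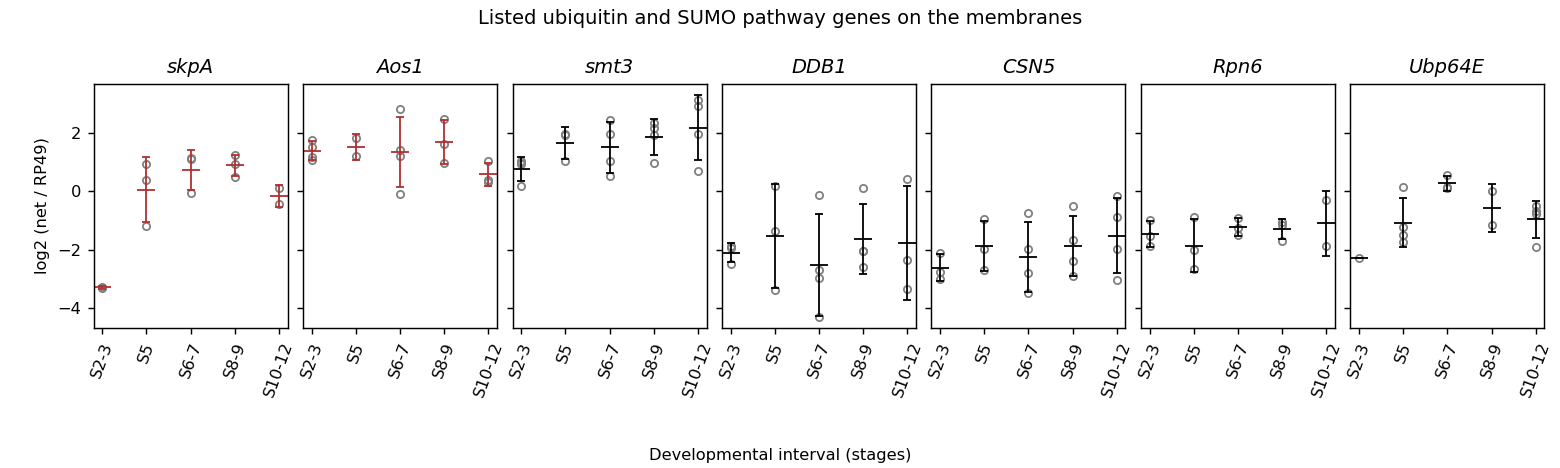
Log2 RP49 ratio of the 7 listed ubiquitin and SUMO pathway genes across the 5 intervals. Open circles are membranes used, dashes are means and error bars are 1 SD. Changes can be read within a gene but levels cannot be compared between genes. skpA has its lowest mean, -3.29, at S2-3, Aos1 its lowest, 0.58, at S10-12, and smt3 its highest, 2.17, at S10-12. For Aos1 and smt3 the difference of S10-12 from S2-3 did not pass in the limma fit without the block.

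Courses like those of the 2 genes were sought among 125 genes measured on at least 2 membranes of every interval, by the root mean square (RMS) difference between interval means centred on each gene's own mean. The nearest to skpA were sala (RMS 0.29), Tom, a Bearded family gene that acts on Notch signaling (0.44), and the gene CG10035 (0.48), against a median of 1.30 over all 125. All 3 had their lowest mean at S2-3 and their highest at S8-9, as skpA did. Since they were picked for likeness to skpA in these same values, this is not a separate result. At S2-3 sala stood at -2.61 and Tom at -2.94 relative to their own means, beside -2.93 for skpA.

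The nearest to Aos1 were Cam, the calmodulin gene (RMS 0.24), scyl, whose product restrains growth signaling through TOR (0.30), and Hrb98DE, which encodes an RNA-binding protein of the hnRNP family (0.32), against a median of 0.70. All 3 had their lowest mean at S10-12, as Aos1 did, at -1.08, -0.76 and -0.97 relative to their own means, beside -0.72 for Aos1. This too follows from the way they were picked. skpA and Aos1 were 1.54 apart. By nearness to Aos1 skpA ranked 122 of the 125, and by nearness to skpA Aos1 ranked 97 of 125. All genes here share the same 20 membranes and RP49 values.

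**Figure D5:**
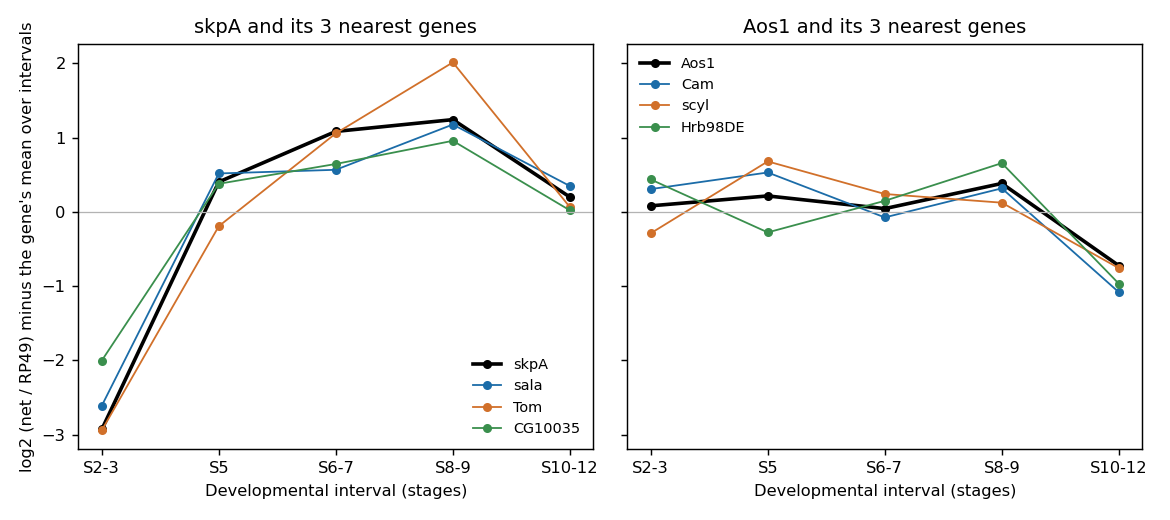
Interval means of the log2 RP49 ratio, centred on each gene's mean over the 5 intervals, for skpA (left, black) and Aos1 (right, black) with the 3 library genes of the smallest RMS difference. The 4 courses on the left are lowest at S2-3 and those on the right are lowest at S10-12, where the nearest genes were picked for this likeness.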

How the data were processed

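Canton S embryos of 5 intervals were profiled on 20 nylon membranes. Deposited intensity values give, for each spot, its signal, its local background (mean and SD) and its net signal, which the authors measured in VersArray Analyzer and did not normalize further. A table of the authors with 1 normalized value per interval was not used here because its features carry no names.

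Spots were kept when they exceeded their background by at least 1 SD of it and had a net signal above 0, clones were left out on a membrane when the CV of their duplicates was over 0.5, and the mean was divided by the median net intensity of all RP49 spots of the membrane. Where a gene had several clones their mean was used, and values were put on the log2 scale. Features measured on at least 2 membranes of both intervals were tested with limma 3.58.1 in R 4.3.3, in 1 fit over 20 membranes with a mean per interval, and p-values were adjusted over all features by the method of Benjamini and Hochberg. SAM was written anew at a false discovery rate of 5%. Python 3.11.15, pandas 2.3.3, NumPy 2.4.6 and matplotlib 3.10.9 handled tables and plots. The fit was tested on simulated data and recovered every feature raised by 5 on the log2 scale in each comparison with S2-3. Of those raised by 3 it recovered 16 of 18 at S5, 17 of 20 at S6-7, 16 of 19 at S8-9 and 13 of 18 at S10-12, and it called 1 or 2 of 117 to 129 unchanged features. The simulated noise was independent between membranes and had the same SD for all features. It held no shared deviation of membranes of the same letter and no values near the background. These rates therefore need not hold for the real membranes or for skpA at S2-3.

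By rule, genes named are both members, printed controls, the listed pathway genes found on the membranes and the 3 genes of the most similar course to each member. pall, rdx, cdc16 and ec were added after their values were seen. The members and lists were chosen with earlier results of these data known. The symbol skpA appears as SkpA in RefSeq. The number of membranes limits the precision.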

Additional observations from a re-analysis of the deposited data

Results flagged for a closer look

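On membrane C of S2-3 the log2 RP49 ratio of smt3 was 0.17, while the other 3 membranes of that interval lay between 0.93 and 1.03. The gap was 0.889 of the whole range, above Dixon's 95% critical value for 4 values. Chance alone passes that value in about 5% of groups, and this was 1 of 17 groups of 4 membranes looked at.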

How the results depend on the processing

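skpA stayed higher than at S2-3 in all 4 later intervals under all 17 alternatives that could be run, and its call changed in 18 of 68 cases. Not all of these could move its differences. The median of clones, SAM, the fit of only the 2 intervals and the fit without membrane D returned those of the main fit. skpA has a single clone, and no spot of it on membrane D was in use. Without a signal filter the differences from S5 to S10-12 were 4.00, 3.03, 4.22 and 1.38, with adjusted p-values of 0.172, 0.306, 0.120 and 0.554, and none passed. The S5 call was also lost with the mean of RP49 (2.50) and with only the 2 intervals in the fit (3.33, adjusted p = 0.0846). The S10-12 difference passed when scaled to RP49 and dap (3.30), to RP49, actin and tubulin (3.47), with neither filter on membranes A to C (3.19, chosen after seeing the data), by SAM and without membrane D (3.13 each). Every fit scaled to RP49 and dap also left out membrane D. Leaving out 1 membrane letter gave 2.86 to 3.98 for S5, 3.78 to 4.41 for the gastrula, 3.98 to 4.37 for S8-9 and 2.89 to 3.37 for S10-12. Fits that left an interval with 1 membrane assume that it varies like the others. Under a rule of 2 background SDs no S2-3 value of skpA was left. Same-letter membranes deviated together, with a correlation over 0.1, in 35 of 40 pairs and not in the other 5. The correlations ranged from -0.062 to 0.729. The fit without a block does not account for this shared deviation. With the letter as a replicate block, skpA differed from S2-3 by 3.47, 4.15, 4.31 and 3.13, all passing, and 65, 36, 62 and 72 features were called, against 8, 7, 5 and 5 without it. Under the block CSN5 and pall passed at S5, and smt3 and CSN5 at S8-9 and S10-12, all higher. At S10-12 Aos1 differed by -1.05 (adjusted p = 0.0656) with the block. Scaled to the 75th percentile 12, 10, 10 and 3 features were called.

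Aos1 passed under no alternative. Scaled to RP49 and dap, which left out membrane D, it had 1 membrane at S5. Its S5 difference from S2-3 was -0.57 scaled to the 75th percentile, -0.054 to RP49 and dap, -0.38 to the mean of RP49, -0.069 to RP49, actin and tubulin, -0.21 with neither filter on membranes A to C and -0.24 without membrane D. At S8-9 these were -0.43, -0.17 and -0.40 for the 75th percentile, RP49 and dap, and RP49, actin and tubulin, -0.15 with neither filter and -0.15 without membrane D. At S6-7 it was 0.067, 0.053 and 0.33 without membrane A, B and C and between -0.60 and 0.33 over all 4. At S10-12 it stayed negative, from -1.74 to -0.57, and from -0.91 to -0.64 without 1 membrane. Leaving out 1 membrane gave -0.24 to 0.34 at S5 and -0.15 to 0.56 at S8-9. Between later intervals none passed and signs turned in 15 cases. For skpA these were -0.97 without a signal filter and -0.13 without membrane B for S6-7 minus S5 (up to 1.25 without membrane C), -0.15 with RP49, actin and tubulin for S8-9 minus S5, 0.37 with the mean of RP49 and 0.51 without membrane A for S10-12 minus S5 (down to -1.09 without membrane B), and for S8-9 minus S6-7 -0.37, -0.51 and -0.40 by the 75th percentile, RP49 and dap, and RP49, actin and tubulin and -0.041 without membrane C (up to 0.32 without membrane B). For Aos1 they were 0.25 and 0.38 with the 75th percentile and the mean of RP49 for S6-7 minus S5, -0.12 and -0.33 with RP49 and dap, and RP49, actin and tubulin for S8-9 minus S5, and -0.11 and -0.31 with the 75th percentile and RP49, actin and tubulin for S8-9 minus S6-7. The cause was not tested.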
